A study of Mus musculus with 8 samples.

Results

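Cytosolic heat shock proteins and polyubiquitin are described here as 9 genes chosen by symbol, Hspa1a, Hspa1b, Hspa8, Hsph1, Dnajb1, Bag3, Hsp90aa1, Hspb1 and Ubb, of 23238 symbols in all. RNA was sequenced from samples labelled as uterine stromal cells, the connective tissue cells under the uterine epithelium, of ovariectomized (OVX) C57BL/6-ICR mice. Here stroma means these samples, which also held reads of epithelium markers. There were 4 groups of 2 libraries each. KO mice (Atg7d/d, made as Atg7f/f;Amhr2cre) given estradiol (E2) and KO mice given oil lacked the autophagy gene Atg7 in the uterine mesenchyme. CON mice (Atg7f/f, with Atg7 floxed and no deletion) were likewise given estradiol or oil. All the mice lacked ovaries. The labels name no group with Cre and an intact Atg7, and they give no estradiol dose, no time after injection, no way of separating the stroma and no statement that the libraries came from separate animals. P-values therefore measure only the spread between these libraries, which may be technical.

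Heat shock proteins keep other proteins folded. HSP70 proteins bind unfolded stretches in a cycle driven by ATP, in which HSP40 partners deliver the client and start ATP cleavage, and HSP110 proteins and BAG proteins release the spent nucleotide. HSP90 holds late folding intermediates, among them steroid receptors such as the estrogen receptor, small heat shock proteins hold unfolded proteins without ATP, and ubiquitin marks those that are to be degraded. Many of these genes are switched on by heat shock factor 1 (HSF1), which binds repeats of the bases GAA in alternating orientation. ATG7 is the enzyme that starts the conjugation steps of autophagy, and BAG3 is known to pass HSP70 clients to autophagy.

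The stretches upstream of 3 inducible genes are shown because each holds GAANNTTC, a pair of the GAA units that HSF1 binds. Hsph1 held a pair of the other arrangement, TTCNNGAA, 33 bases upstream of its first start site, and is not shown. A part of these pairs in the changes after estradiol was not tested. Each stretch shown is the 150 bases before the RefSeq start site on the gene's own strand, 5′ to 3′ (RefSeq, build GRCm38.p6), and capitals mark GAANNTTC. The stretches are chr17:34972157-34972306 (minus strand) for Hspa1a, chr17:34959239-34959388 (minus strand) for Hspa1b and chr5:135887769-135887918 (plus strand) for Hspb1.
Hspa1a: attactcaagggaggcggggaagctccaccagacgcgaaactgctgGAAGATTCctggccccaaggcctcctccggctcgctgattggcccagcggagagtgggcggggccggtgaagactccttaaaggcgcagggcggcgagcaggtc
Hspa1b: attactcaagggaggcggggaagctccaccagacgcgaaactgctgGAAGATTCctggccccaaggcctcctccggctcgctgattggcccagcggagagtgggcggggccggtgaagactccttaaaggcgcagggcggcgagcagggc
Hspb1: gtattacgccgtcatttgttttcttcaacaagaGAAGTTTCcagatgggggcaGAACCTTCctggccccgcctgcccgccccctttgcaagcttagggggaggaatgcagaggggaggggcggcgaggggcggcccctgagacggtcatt
The pair begins 104 bases upstream of the start site in both Hspa1a and Hspa1b, and pairs begin 117 and 97 bases upstream in Hspb1.

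RefSeq promoters, each 250 bases before to 50 bases after a start site, were found for 7 of the 9 genes, and none was used for Hspa8 or Hsp90aa1. GAANNTTC or TTCNNGAA, a pair of GAA units in either arrangement, was present in 5 of those 7 genes (Hspa1a, Hspa1b, Hspb1, Hsph1 and Bag3), against 15.1% of all 32851 promoters of that length. Both motifs read the same on either strand, so a search of 1 strand covers both. The units differ: a gene counted if any of its promoters held a pair (10 promoters for the 7 genes), and the 15.1% is over single promoters. Hspa1a and Hspa1b, with promoters 98.7% identical, were counted separately. A triple, in which a pair GAANNTTC is followed by NNGAA, was searched on both strands and overlaps the pairs; it was present in Hsph1, 36 bases downstream of its first start site, and in 0.603% of all promoters. In Bag3 the pair lay 42 bases downstream. Neither Dnajb1 nor Ubb held a pair in this window. The palindromic estrogen response element, GGTCA and TGACC with 3 bases between them, was found in 0 of the 7 genes, against 0.07% of all promoters. These are matches of letters, and binding was not measured.

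Library totals ran from 5458390 to 6951080 counts, and the 9 genes took 0.314% to 1.13% of them. The 8 genes other than Ubb had at least 918 reads in every library and passed the filter on low counts, as did 13347 genes in all. Library 1 stood apart from library 2 in oil: the second principal component, with 12.5% of the variance, placed library 1 at -12.3 in KO and -38.0 in CON, and library 2 at 28.7 in KO and 30.3 in CON. Atg7 itself had 20 to 33 reads in every library and passed no test. The QuantSeq kit reads transcripts at their 3′ ends, and these counts therefore do not check the deletion.

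Estradiol was followed by lower levels of the heat shock genes in both genotypes. In KO stroma 6 of the 8 tested genes fell and none rose (edgeR quasi-likelihood test, p adjusted over all genes by Benjamini-Hochberg), where 11.2% of all tested genes fell and 13.1% rose. In CON stroma 7 of the 8 fell and none rose, where 14% of all tested genes fell and 15.8% rose. The fitted median log2 fold change of the 8 was -1.29 in KO, against 0.02 for all genes, and -1.28 in CON, against 0.01 for all genes. Without CON oil library 1 the CON median of the 8 was -0.76. KO estradiol libraries lay below both KO oil libraries in 8 of 8 genes (32.7% of all genes), and CON estradiol libraries lay below both CON oil libraries in 7 of 8 (31.7% of all genes). In bulk RNA, fewer cells of a type and less RNA per cell cannot be told apart.

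**Figure D1:**
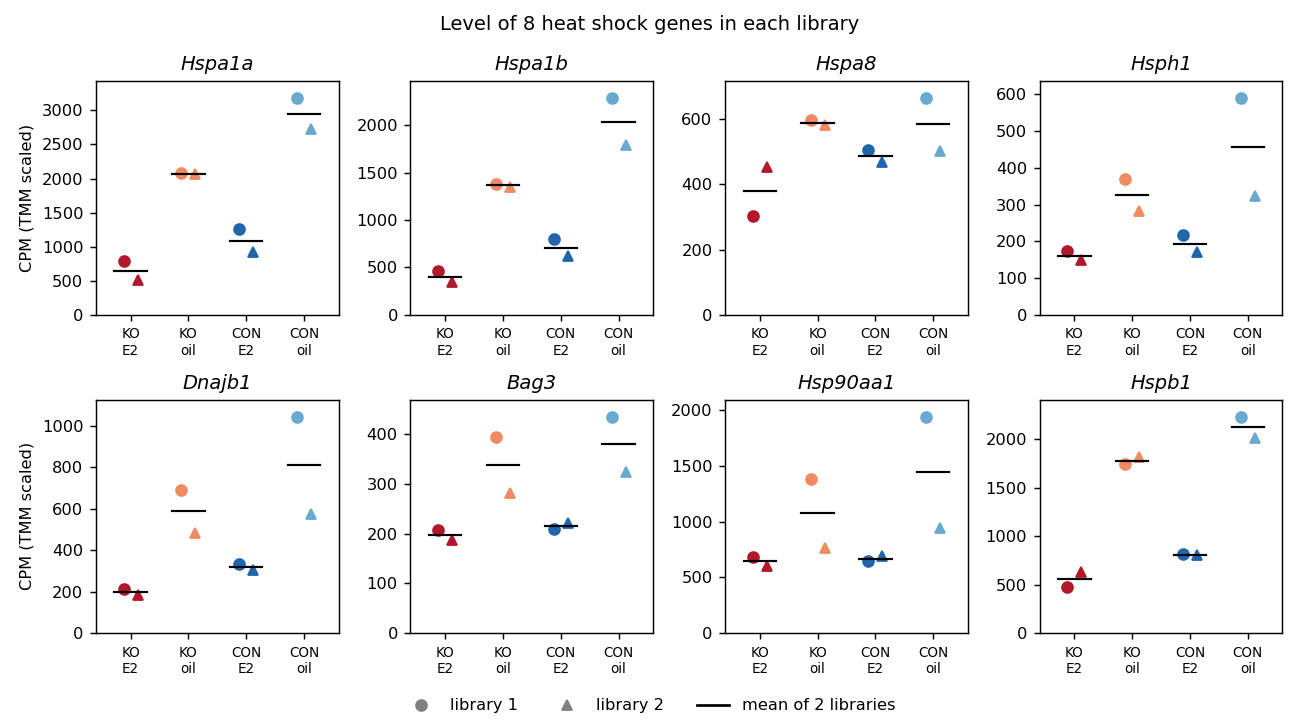
Level of each of the 8 tested heat shock genes in CPM (counts scaled to a common library size by TMM) in each library, with group means as bars; y axes start at 0 and differ between panels. In all 8 panels the oil groups hold the highest means and KO estradiol the lowest; in Hspa8 the CON estradiol and CON oil libraries overlap.

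Hspa1a and Hspa1b encode the main inducible HSP70 and lie close together on chromosome 17 (34969190 to 34972156 and 34956436 to 34959238, both on the minus strand, mm10 coordinates from GENCODE M21). CPM here means counts adjusted for library size. In KO stroma Hspa1a stood at 786 and 506 CPM after estradiol (libraries 1 and 2), against 2081 and 2064 CPM after oil. In CON stroma it stood at 1259 and 919.7 CPM after estradiol, against 3177 and 2723 CPM after oil. No library of one group reached into another: the highest estradiol library lay below the lowest oil library in each genotype. The fall was 3.21-fold in KO (log2 fold change -1.68 ± 0.26 SE, adjusted p = 0.00353) and 2.71-fold in CON (-1.44 ± 0.26, adjusted p = 0.00483).

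Hspa1b was at 458 and 348 CPM in KO stroma after estradiol, against 1384 and 1354 CPM after oil. The CON level was 799 and 619 CPM after estradiol, against 2286 and 1789 CPM after oil. Its groups were as cleanly apart as those of Hspa1a, and it fell 3.40-fold in KO (-1.76 ± 0.23, adjusted p = 0.00200) and 2.87-fold in CON (-1.52 ± 0.23, adjusted p = 0.00236). The promoters of the pair are 98.7% identical (296 of 300 bases), and 58.8% of the 50-base windows of the Hspa1a transcript occur in that of Hspa1b. The last 300 transcript bases, from which 3′ reads come, share 0 of 251 such windows. Hspa1a took 58.2% to 63.2% of the reads of the pair in all 8 libraries. Counted as 1 gene, the pair fell by 1.71 ± 0.25 on the log2 scale in KO (adjusted p = 0.00300) and by 1.47 ± 0.25 in CON (adjusted p = 0.00397).

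Hspb1 (chromosome 5, 135887919 to 135889563, plus strand), the small heat shock protein also called HSP25 in the mouse, differed the least of the 8 genes between the libraries of CON oil. It stood at 476 and 634 CPM in KO stroma after estradiol, against 1744 and 1813 CPM after oil. Its CON libraries had 817 and 802 CPM after estradiol, against 2229 and 2015 CPM after oil. All 4 groups were apart, and it fell 3.21-fold in KO (-1.68 ± 0.20, adjusted p = 0.00153) and 2.62-fold in CON (-1.39 ± 0.20, adjusted p = 0.00200). Of the windows at its transcript end, 19.1% also occur in the pseudogene Hsp25-ps1. Hspa1a, Hspa1b and Hspb1 passed the test in both genotypes whichever of the 8 libraries was left out, with adjusted p-values up to 0.0362 in KO and 0.0455 in CON.

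The other HSP70 of the group, Hspa8 (chromosome 9, 40800984 to 40810087, plus strand), is the constitutive form present in unstressed cells. It had 304 and 453 CPM in KO stroma after estradiol, against 596 and 581 CPM after oil. Levels in CON stroma were 506 and 469 CPM after estradiol, against 663 and 503 CPM after oil, and these groups overlapped. The difference did not pass the test in KO (-0.64 ± 0.23, adjusted p = 0.0715) or in CON (-0.26 ± 0.23, adjusted p = 0.419). DESeq2 gave an adjusted p of 0.0472 in KO. Of the 251 windows at the end of its transcript, 67.3% also occur in 10 other genes. Gm15459, which shares the most (168 windows), has no row in the count files, and not all of the 10 were looked up.

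The partners of HSP70 fell as well. Dnajb1 (chromosome 8, 83608193 to 83612653, plus strand), the HSP40 that works with HSPA1A and HSPA8, stood at 213 and 187 CPM in KO stroma after estradiol, against 689.5 and 485 CPM after oil. In CON its levels were 336 and 305 CPM after estradiol, against 1042 and 574 CPM after oil. It fell 2.94-fold in KO (-1.55 ± 0.29, adjusted p = 0.00709) and 2.52-fold in CON (-1.33 ± 0.29, adjusted p = 0.0102). The estradiol libraries lay close together in both genotypes, and the oil libraries spread widely.

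Hsph1 (chromosome 5, 149614287 to 149636376, minus strand), the HSP110 that exchanges the nucleotide of HSP70, was at 173 and 148 CPM in KO stroma after estradiol, against 369 and 282 CPM after oil. The CON level was 217 and 171 CPM after estradiol, against 589 and 324 CPM after oil. Its log2 fold change was -1.02 ± 0.29 in KO (adjusted p = 0.0325) and -1.24 ± 0.29 in CON (adjusted p = 0.0133). Estradiol and oil libraries did not overlap in either genotype, and CON oil library 1 was far above the others.

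Bag3 (chromosome 7, 128523616 to 128546981, plus strand), the link from HSP70 to small heat shock proteins and to autophagy, had 207 and 188 CPM in KO stroma after estradiol, against 394 and 280.5 CPM after oil. Its CON libraries had 209.9 and 222 CPM after estradiol, against 434 and 324 CPM after oil. Its fall was smaller, 1.70-fold in KO (-0.77 ± 0.22, adjusted p = 0.0330) and 1.76-fold in CON (-0.81 ± 0.22, adjusted p = 0.0232).

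Hsp90aa1 (chromosome 12, 110690605 to 110702728, minus strand), the inducible cytosolic HSP90, had 687 and 604 CPM in KO stroma after estradiol, against 1383 and 764 CPM after oil. In CON stroma it had 646 and 689 CPM after estradiol, against 1937 and 943 CPM after oil. Library 1 was the high one in both oil groups. It fell in CON (-1.11 ± 0.36, adjusted p = 0.0456) and did not pass the test in KO (-0.73 ± 0.36, adjusted p = 0.161). Without CON oil library 1 its log2 fold change in CON was -0.47 (adjusted p = 0.293), and without either estradiol library of KO its adjusted p in CON was 0.0807 or 0.0809.

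The calls of Hsph1, Dnajb1, Bag3 and Hsp90aa1 did not hold with every library left out. In KO, leaving out either KO estradiol library ended the calls of Hsph1, Dnajb1 and Bag3, which left 3 genes called. Leaving out KO oil library 1 ended those of Hsph1 and Bag3 (4 called), KO oil library 2 that of Hsph1 (5 called) and either CON estradiol library that of Bag3 (5 called). In CON, leaving out either CON estradiol library ended the calls of Hsph1, Dnajb1, Bag3 and Hsp90aa1 (3 called), and CON oil library 1 those of Hsph1, Bag3 and Hsp90aa1 (4 called). Without CON oil library 1 the CON fold changes were -0.71 for Hsph1, -0.81 for Dnajb1 and -0.56 for Bag3, and without KO oil library 1 that of Bag3 in KO was -0.50. The sign of the fold change stayed negative for all 8 genes in both genotypes with any 1 library left out.

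**Figure D2:**
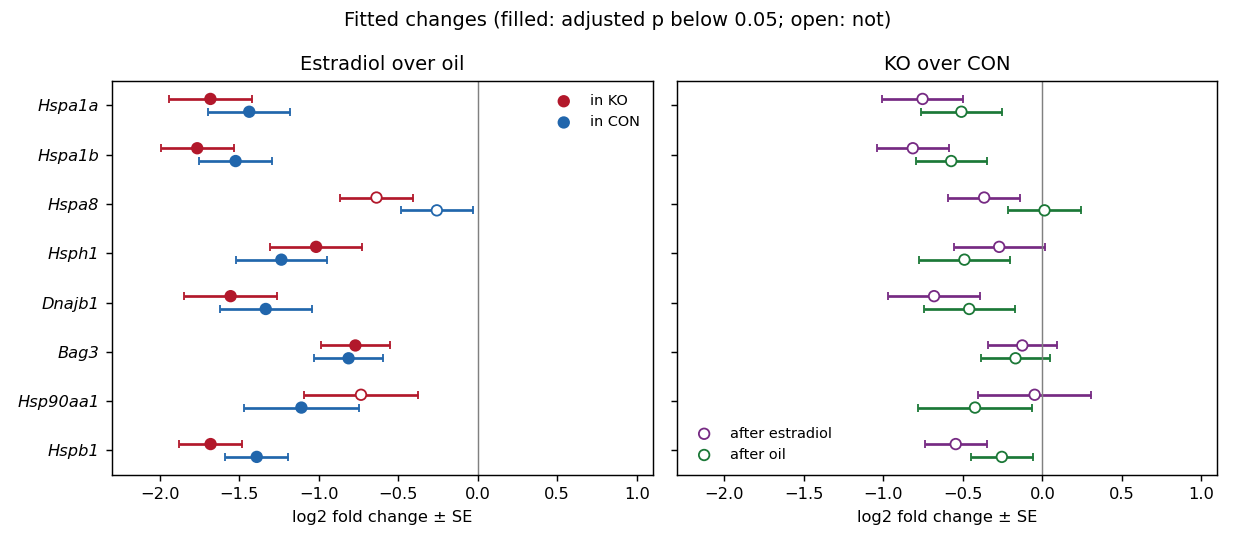
Fitted log2 fold changes with SE of the 8 tested heat shock genes, estradiol over oil on the left and KO over CON on the right; filled points have an adjusted p below 0.05. On the left Hspa1a, Hspa1b and Hspb1 lie between -1.76 and -1.39 in both genotypes, and on the right every point is open.

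The spread between oil libraries differed from gene to gene. In KO oil, library 1 was 0.962 times library 2 for Hspb1 and 1.81 times for Hsp90aa1, and in CON oil 1.11 times for Hspb1 and 2.06 times for Hsp90aa1. Library 1 was the higher for 7 of 8 genes in KO oil and for 8 of 8 in CON oil. Hsph1, Dnajb1, Bag3 and Hsp90aa1 had ratios from 1.31 to 2.06 across both oil groups. With library 1 of both oil groups left out, 6 genes were called in KO and 6 in CON, and Hsp90aa1 in CON had a log2 fold change of -0.52 (adjusted p = 0.0509).

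Markers of epithelium also differed between the libraries of a group. The summed level of 20 epithelium markers, which included Cldn4, Cdh1 and Krt18, was 1945 and 2766 CPM in KO stroma after estradiol, against 11913 and 5188 CPM after oil. The CON sums were 2087 and 4947 CPM after estradiol, against 19106 and 6633 CPM after oil. Library 1 was thus the higher in both oil groups, and library 2 in both estradiol groups. The summed level of the 8 heat shock genes after estradiol was higher in library 1 (3305 and 3068 CPM in KO, 4789 and 4197 CPM in CON). Of the 8, 6 were higher in library 1 in each genotype. In KO, Hspa8 and Hspb1 were lower there, at 0.670 and 0.751 times library 2. All 20 markers had enough reads to be tested. Of these 20, 6 fell and 2 rose after estradiol in KO, and 10 fell and 2 rose in CON. For this list and the next ones, 11.2% of all tested genes fell and 13.1% rose in KO. In CON 14% fell and 15.8% rose. Krt18, a keratin of simple epithelia, averaged 166 ± 29.8 CPM in KO after estradiol and 1329 ± 872 CPM after oil (SD, n = 2 each).

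Stroma markers went the other way, from 7000.1 to 9787 CPM in sum over the 4 estradiol libraries and from 2677 to 3874 CPM over the 4 oil libraries. The epithelium sum was thus above the stroma sum in each oil library and below it in each estradiol library. The estradiol and oil samples therefore differed in their marker mixture, and the share of each cell type was not measured. The collagen gene Col1a1 rose by 5.25 ± 0.32 on the log2 scale in KO and by 5.13 ± 0.31 in CON (adjusted p = 0.000162 and 0.000157), and had the largest rise of its list. Collagen genes held much of the rise in sum. In KO, Col1a1 averaged 52.0 CPM after oil and 1982 CPM after estradiol, and Col1a2 averaged 139 and 2457 CPM. The 15 stroma markers had median log2 fold changes of 0.96 in KO and 0.87 in CON. The other markers were mixed: 6 of the 15 passed in neither direction in KO, and 5 in CON. In each genotype 9 of the 15 rose, none fell in KO and 1 fell in CON. The 1 that fell was Dcn, which encodes the matrix proteoglycan decorin (-0.65 ± 0.18 in CON, adjusted p = 0.0268, and -0.38 ± 0.18 in KO, adjusted p = 0.151). The summed level of 10 smooth muscle markers was 6421 to 7356 CPM in the estradiol libraries and 1655 to 4218 CPM in the oil libraries. Of the 10, 4 rose and 1 fell in KO, and 5 rose and 0 fell in CON. Macrophage markers summed to 194 to 323 CPM in the estradiol libraries and 154 to 209.6 CPM in the oil libraries. They were mixed: of 10, 1 rose and 1 fell in KO, and 2 rose and 1 fell in CON. The sums of endothelium markers overlapped, with 1317 to 1788 CPM after estradiol and 1328 to 1929 CPM after oil. Of 10 such markers, 1 rose and 2 fell in KO, and 2 rose and 2 fell in CON. Erythroid markers summed to 276 to 495 CPM after estradiol and 163 to 241 CPM after oil, and 4 of 5 rose in CON and none in KO. Mesothelium markers summed to 86.5 to 157 CPM after estradiol and 158 to 212 CPM after oil. Nearly all of that was 1 gene, Wt1, which averaged 131 CPM in KO and 92.8 CPM in CON after estradiol. After oil Wt1 averaged 198 CPM in KO and 175 CPM in CON. Wt1, the 1 gene of this list that was tested, fell in CON (-0.92 ± 0.23, adjusted p = 0.0172) and did not pass in KO (-0.60 ± 0.23, adjusted p = 0.0842). Of 5 tested granulocyte markers 1 fell in KO and none in CON, and the 1 tested lymphocyte marker passed in neither.

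Early response genes, transcription factors and regulators that cells switch on within minutes of a stimulus, also had a lower summed level after estradiol. Of 28 such genes, 16 fell and none rose in each genotype, where 11.2% of all tested genes fell in KO and 14% in CON. Their summed level was 24134 and 19106 CPM in KO stroma after estradiol, against 31726 and 32022 CPM after oil, and 29612 and 22346 CPM in CON stroma after estradiol, against 35295 and 40106 CPM after oil. Of the 3 with the highest mean level, Nr4a1, a nuclear receptor gene, fell in KO (-1.46 ± 0.37, adjusted p = 0.0215) and did not pass in CON (-0.96 ± 0.36, adjusted p = 0.0754). Jun fell in CON (-0.79 ± 0.21, adjusted p = 0.0207) and did not pass in KO (-0.54 ± 0.21, adjusted p = 0.0866). Cyr61, which encodes a secreted matrix protein, had fold changes above 0 that passed in neither (0.44 ± 0.49 in KO and 0.72 ± 0.49 in CON). Between the oil libraries, the early response sum was higher in library 2 in both genotypes. The heat shock sum was there higher in library 1 (8640 and 7624 CPM in KO, 12357 and 9195 CPM in CON). The part of other cell types, of stroma content and of early response genes in the heat shock values was not tested.

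**Figure D3:**
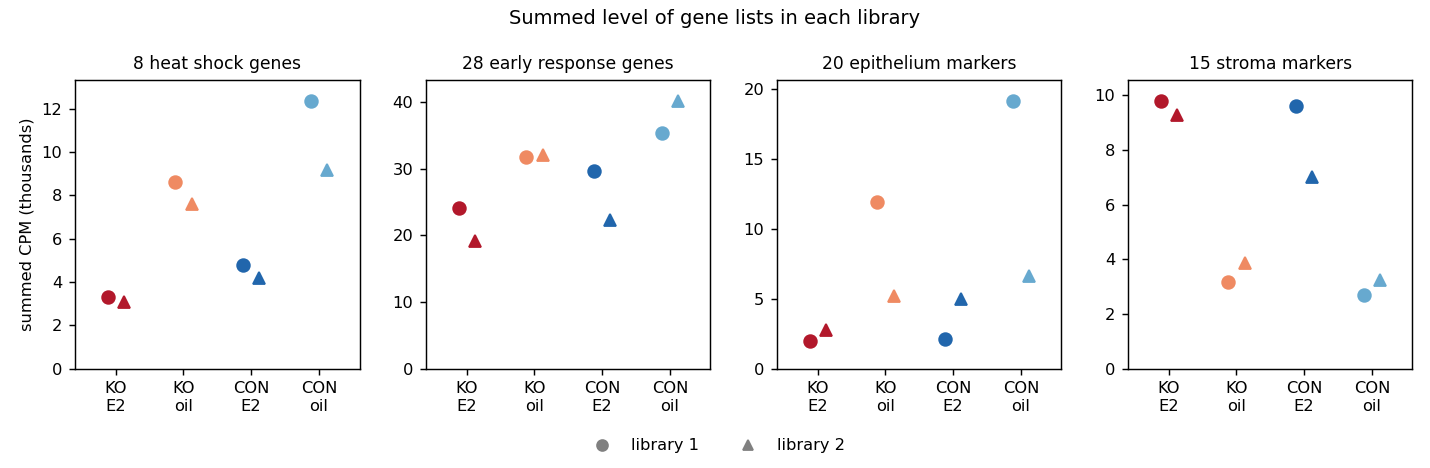
Summed CPM of 4 gene sets in each library, with y axes from 0 that differ between panels. The heat shock and early response sums are lower in every estradiol library than in the oil libraries of the same genotype; the epithelium sum is highest in library 1 of both oil groups, and the stroma sum is highest after estradiol.

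Deletion of Atg7 was the question set by the series. After estradiol all 8 genes had a fitted log2 fold change below 0 in KO against CON (52.1% of all genes did), with a median of -0.46 against -0.01 for all genes. None of the 8, and 0% of all 13347 genes, passed the edgeR test, and DESeq2 called 0 as well. At an unadjusted p below 0.05, 4 of the 8 were lower (1.42% of all genes were), and 403 genes (3.02%) differed in either direction in edgeR and 277 in DESeq2. In 6 of the 8 both KO estradiol libraries lay below both CON estradiol libraries, as for 18.2% of all genes.

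The inducible HSP70 genes had the most negative fold changes between genotypes after estradiol, without passing the test. Hspa1b averaged 403 ± 77.9 CPM in KO after estradiol and 709 ± 127 CPM in CON after estradiol (SD, n = 2 each, here and below). Its log2 fold change was -0.81 ± 0.22, with an unadjusted p of 0.00547 and an adjusted p of 1. Hspa1a averaged 646 ± 198 CPM in KO and 1089 ± 239.7 CPM in CON (-0.75 ± 0.26, adjusted p = 1). Dnajb1 averaged 199.9 ± 18.8 CPM in KO and 321 ± 21.9 CPM in CON (-0.68 ± 0.29), and Hspb1 averaged 555 ± 111 CPM in KO and 809.6 ± 10.5 CPM in CON (-0.55 ± 0.20), both with an adjusted p of 1. Hsp90aa1 and Bag3 had fold changes of -0.05 ± 0.36 and -0.13 ± 0.22.

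In oil, 7 of the 8 were below 0 in KO against CON (51.4% of all genes were), with a median of -0.44 against -0.01. None of the 8 and 0% of all genes passed the edgeR test, and DESeq2 called 0. At an unadjusted p below 0.05, 1 of the 8 was lower (1.03% of all genes were), and 339 genes (2.54%) differed in either direction in edgeR and 212 in DESeq2. The KO oil libraries lay below both CON oil libraries in 3 genes, Hspa1a, Hspa1b and Hspb1 (11.6% of all genes). Hspa1b averaged 1369 ± 21.3 CPM in KO and 2037 ± 351 CPM in CON (-0.57 ± 0.22, adjusted p = 1), and Hspa8 averaged 588 ± 10.5 CPM in KO and 583 ± 113 CPM in CON (0.01 ± 0.23, adjusted p = 1). Without CON oil library 1 the median of the 8 was 0.06, and Hsph1, Dnajb1, Bag3 and Hsp90aa1 were above 0.

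The estradiol effect was not shown to differ between genotypes. The interaction, the estradiol effect in KO minus that in CON, called 0 of the 8 genes and 0% of all genes in edgeR and 0 in DESeq2. At an unadjusted p below 0.05 it had 210 genes (1.57%) in edgeR and 138 in DESeq2, with 0 of the 8 among them. Its values ran from -0.38 for Hspa8 (95% interval -1.11 to 0.35) to 0.38 for Hsp90aa1 (-0.76 to 1.51). For Hspa1b it was -0.24 (-0.95 to 0.47). With 2 libraries a group, each of these intervals includes 0 and differences of either sign.

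The order of the group means was the same in 7 of the 8 genes: KO estradiol lowest, then CON estradiol, KO oil and CON oil. That order was read from these same means, and 14.4% of all tested genes had it. Hspa8 had the oil groups in the reverse order. Neighbouring groups in this order were apart in all their libraries at all 3 steps for Hspa1a, Hspa1b and Hspb1, as for 0.937% of all tested genes. For Dnajb1 and Bag3 the oil groups overlapped, and for Hsph1 and Hsp90aa1 both the oil groups and the estradiol groups did.

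Ubb (chromosome 11, 62551171 to 62553213, plus strand), a polyubiquitin gene whose product is cut into ubiquitin units, had too few reads to be tested. It had 0 and 1 reads in KO stroma after estradiol, 1 and 2 in KO after oil, 6 and 8 in CON after estradiol, and 12 and 3 in CON after oil. A count of 0 allows a level of up to 0.540 CPM (3 reads) in that library, by counting error only. Every KO library was below every CON library. Scaled for depth, the ratio of KO to CON reads was 0.145 over all libraries (4 against 29 reads, 95% counting interval 0.0370 to 0.413), which covers counting error and not the spread between libraries. With no filter on low counts, edgeR gave an unadjusted p of 0.0319 after estradiol and 0.0709 in oil, and an adjusted p of 1 for both.

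The Ubb row cannot be read as the level of the gene. Of the 50-base windows in the last 300 bases of its transcript, 86.5% (217 of 251) also occur in Gm1821, which GENCODE lists as a transcribed processed pseudogene on chromosome 14 (46084028 to 46085000, plus strand). Gm1821, named here after its values were seen, had 4293 to 8098 reads per library. It averaged 804 ± 44.1 CPM in KO after estradiol and 1118 ± 1.82 CPM in KO after oil (log2 fold change -0.48 ± 0.17, adjusted p = 0.0714). In CON it averaged 901 ± 11.2 CPM after estradiol and 1200.4 ± 109 CPM after oil (-0.41 ± 0.17, adjusted p = 0.0960). In KO against CON the log2 fold change of Gm1821 was -0.16 ± 0.17 after estradiol and -0.10 ± 0.17 in oil, and neither passed. How reads with several matches were counted is not given in the sources used here, so reads of Ubb and Gm1821 cannot be told apart.

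**Figure D4:**
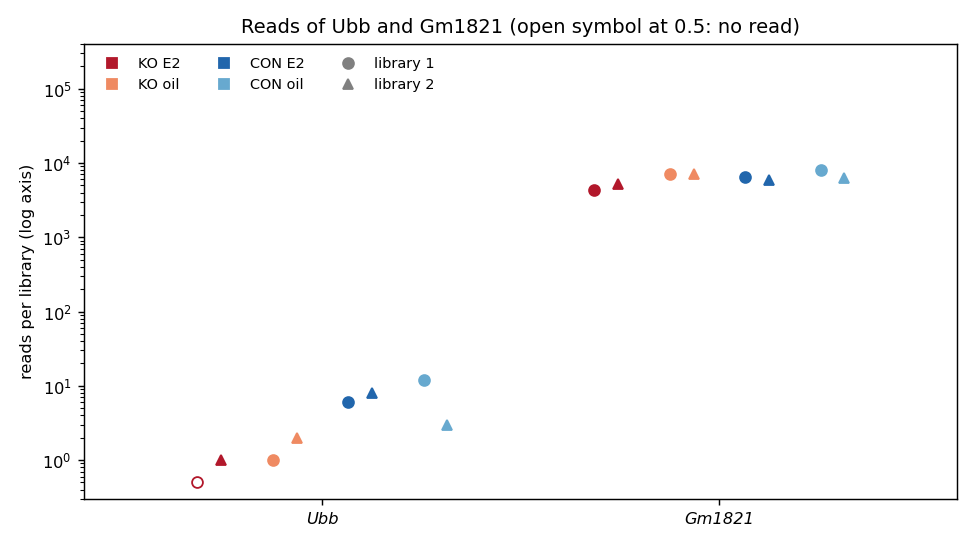
Reads per library of Ubb and its pseudogene copy Gm1821 on a log axis, by group; an open symbol stands for no read. Ubb has 0 to 12 reads, fewer in each KO library than in each CON library, and Gm1821 has 4293 to 8098.

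Other chaperone genes moved in both directions, with more rises than falls. Lists of chaperone and ubiquitin genes without the 9 held 93 genes, 87 of them tested. In KO stroma 19 rose and 8 fell after estradiol, with a median log2 fold change of 0.41, and in CON stroma 28 rose and 8 fell, with a median of 0.32. Of all tested genes, 13.1% rose and 11.2% fell in KO, and 15.8% rose and 14% fell in CON. The 8 falls are not above the share of falls in either genotype, and the 19 and 28 rises are above the share of rises. The counts of the single lists below are to be read beside the same shares. No gene of these lists passed a test of the deletion or of the interaction in edgeR. At an unadjusted p below 0.05 the lists had 1 gene in KO against CON in oil, 0 after estradiol and 0 in the interaction.

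Within the HSP70 and HSP110 list 1 of 8 rose and 1 fell in KO, and 3 rose and 1 fell in CON. Hspa2, known for its role in male germ cells, averaged 29.8 ± 0.410 CPM in KO after estradiol and 98.1 ± 21.2 CPM after oil, and fell (log2 fold change -1.72 ± 0.23 in KO, adjusted p = 0.00225, and -1.84 ± 0.23 in CON, adjusted p = 0.00124). Hspa4, an HSP110 relative of Hsph1, rose (0.98 ± 0.20 in KO, adjusted p = 0.00975, and 0.62 ± 0.20 in CON, adjusted p = 0.0439).

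Among 17 other HSP40 genes 2 rose and 3 fell in KO, and 3 rose and 3 fell in CON. Those that fell in each genotype were Dnaja1, Dnaja4 and Dnajb2, which encode HSP70 partners. Dnaja1 averaged 440.0 ± 26.6 CPM in KO after estradiol and 828 ± 123 CPM after oil, with fold changes of -0.91 ± 0.19 in KO (adjusted p = 0.0113) and -1.02 ± 0.19 in CON (adjusted p = 0.00605). Dnajc3, an HSP40 of the endoplasmic reticulum, rose in both (0.80 ± 0.20 in KO and 0.66 ± 0.20 in CON).

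HSP90 relatives and co-chaperones rose more often than they fell: 6 of 15 rose and 1 fell in KO, and 9 rose and 1 fell in CON. Hsp90b1, the HSP90 of the endoplasmic reticulum, averaged 773 ± 98.0 CPM in KO after estradiol and 325 ± 23.7 CPM after oil, and rose by 1.25 ± 0.21 in KO and 1.35 ± 0.21 in CON (adjusted p = 0.00461 and 0.00278). Unc45a, a chaperone of myosin, was the gene of this list that fell (-0.97 ± 0.21 in KO and -0.75 ± 0.20 in CON).

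Of 16 chaperonin and prefoldin genes, which fold actin and tubulin among others or work in mitochondria, 8 rose and 1 fell in KO, and 7 rose and 1 fell in CON. Cct6a, a subunit of the cytosolic chaperonin, averaged 232 ± 2.75 CPM in KO after estradiol and 119 ± 0.369 CPM after oil (0.96 ± 0.17, adjusted p = 0.00551), and rose by 1.16 ± 0.17 in CON (adjusted p = 0.00216). Of 6 tested small heat shock genes Hspb6 fell in KO (-1.09 ± 0.25, adjusted p = 0.0142) and the lens crystallin gene Cryab rose in CON (0.86 ± 0.23, adjusted p = 0.0207). Of 10 genes for BAG proteins and other HSP70 regulators, 1 fell in KO (Tomm34, -0.93 ± 0.26), and 2 fell and 1 rose in CON (Tomm34, Bag2 and Stub1).

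Heat shock factor genes gave no fall: Hsf1 had log2 fold changes of 0.07 in KO and -0.02 ± 0.28 in CON, and neither passed. Hsbp1, which encodes a protein that binds HSF1, rose in CON (0.74 ± 0.21, adjusted p = 0.0273). Of the 12 ubiquitin genes and entry enzymes reported here, a list that leaves out some ubiquitin genes, 2 rose in KO and 3 in CON. The deubiquitinase gene Uchl3 rose by 1.74 ± 0.27 in KO and 1.87 ± 0.26 in CON (adjusted p = 0.00332 and 0.00194).

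**Figure D5:**
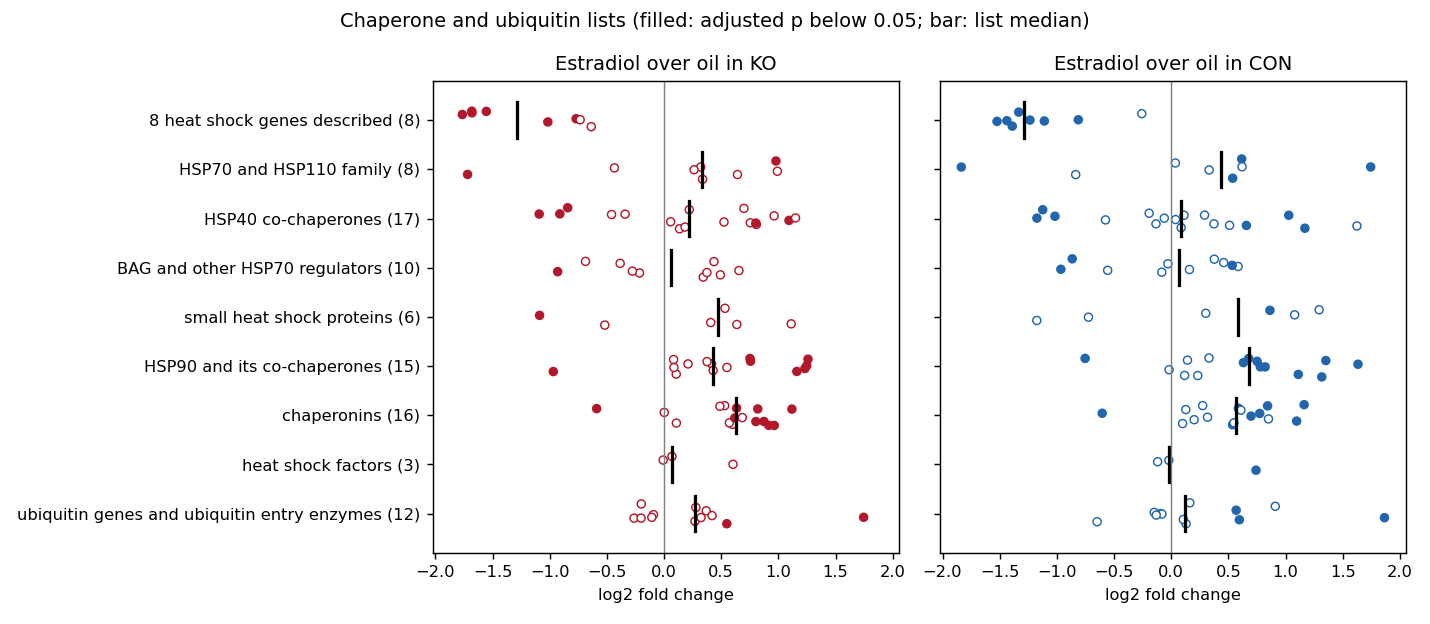
Fitted log2 fold change of estradiol over oil for each tested gene, by list, in KO (left) and CON (right); numbers in brackets are genes tested, filled points have an adjusted p below 0.05 and bars are list medians. The median of the 8 heat shock genes is -1.29 in KO and -1.28 in CON, and the medians of the chaperone and ubiquitin lists drawn are above 0, except that of the heat shock factors in CON (-0.02).

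The 8 genes varied together to different degrees. Across the 8 libraries, which fall into estradiol and oil clusters, the Pearson correlation of log2(CPM + 1) between pairs ran from 0.655 for Hspa8 and Hsp90aa1 to 0.996 for Hspa1a and Hspa1b. It was 0.979 for Hsph1 and Dnajb1, and 0.758 for Hsp90aa1 and Hspb1. These values describe 8 libraries that share their groups.

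Of 8701 other genes ranked by correlation with the mean standardised level of the 8, those most alike were Bbc3 (r = 0.993), Hmces (0.993), Swt1 (0.992), Vcpip1 (0.992), Chac1 (0.991), Thoc6 (0.990), Zfp110 (0.989) and Riok1 (0.988). Bbc3, a gene of the BCL2 family that promotes cell death, averaged 36.1 ± 0.790 CPM in KO after estradiol, 68.0 ± 8.18 CPM in KO after oil, 45.7 ± 0.953 CPM in CON after estradiol and 74.6 ± 9.85 CPM in CON after oil. Chac1, an enzyme that degrades glutathione, averaged 4.51 ± 0.0221 CPM in KO after estradiol, 18.9 ± 1.71 CPM in KO after oil, 6.96 ± 1.81 CPM in CON after estradiol and 28.7 ± 11.3 CPM in CON after oil. Both were chosen for their likeness over these 8 libraries, which fixes their group order.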

How the data were processed

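The authors deposited raw read counts per gene symbol, 1 file per library, with no normalization; this was read from the values, which are whole numbers with unequal totals. Per the labels' protocols, 500 ng of total RNA extracted with Trizol went into each QuantSeq library, and per the submitters' processing notes Bowtie2, edgeR and mm10 were used, without versions. For the read counter and its annotation, the sources used here give no name.

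Where a symbol stood on more than 1 of the 23282 lines (35 symbols), its line of highest total was used (0.0973% of counts left out, none from the 9 genes). Genes were kept with filterByExpr (minimum count 10, minimum total 15), scaled by TMM (factors 0.918 to 1.03) and tested with the quasi-likelihood test of edgeR 4.0.16 in R 4.3.3. The model had 1 mean per group over all 8 libraries, 4 residual and 5.08 prior degrees of freedom, and a biological coefficient of variation of 21.8%. P-values were adjusted over 13347 genes by Benjamini-Hochberg at 0.05. CPM values use the TMM factors, and error is the SD over 2 libraries or the SE of the fit. The fit was tested on simulated data. Replicates of a group differed beyond sampling noise (chi-square per degree of freedom 7.86 to 42.6).

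The genes, the 18 gene lists and the tests were chosen with earlier results of these data known. Some ubiquitin genes are not reported here. Named were the 9 genes, up to 4 genes of each chaperone or ubiquitin list per comparison with the smallest adjusted p, up to 3 early response genes or markers of a list with the highest mean CPM, and the 8 genes most alike (log2(CPM + 1), mean of at least 10 CPM). Promoters came from RefSeq, and coordinates and transcript ends from GENCODE M21, both on the build of the files. Alternatives were other scaling, no filter, DESeq2 1.42.0, fits of 2 groups alone, each library left out, a replicate block, duplicate lines summed, and Hspa1a and Hspa1b summed.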

Additional observations from a re-analysis of the deposited data

How the results depend on the processing

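Heat shock genes called after estradiol were 6 in KO and 7 in CON, and ranged from 3 to 7 in each with 1 library left out. The fit on the 4 libraries of the groups compared called 7 in KO and 4 in CON, and DESeq2 called 7 in each. Other scalings, no filter and summed lines left both counts as they were. The deletion and the interaction called 0 of the 8 under every alternative run. Replicate numbers are shared by the groups but are not stated to pair samples. Deviations of same-numbered libraries correlated at 0.552 between the oil groups, 0.264 between the estradiol groups and -0.263 to -0.00504 across treatments. A fit with the replicate block called 6 genes in KO, 7 in CON and 0 elsewhere. That block fits 1 shift shared by all 4 groups, so it cannot take up a difference between libraries of the oil groups alone. With library 1 of both oil groups left out, a choice made after seeing the data, 6 were called in each genotype.

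Signs changed only in differences that passed no test. With 1 library left out, KO against CON in oil ranged from -0.20 to 0.26 for Hspa8, -0.44 to 0.10 for Bag3, -0.88 to 0.042 for Hsph1, -0.85 to 0.073 for Dnajb1 and -0.92 to 0.23 for Hsp90aa1, and KO against CON after estradiol from -0.15 to 0.039 for Hsp90aa1. The interaction ranged from -0.60 to 0.038 for Hspa1a, -0.75 to 0.18 for Dnajb1, -0.22 to 0.31 for Bag3, -0.31 to 0.62 for Hsph1 and -0.27 to 0.86 for Hsp90aa1, and was -0.056 for Hsph1 without library 1 of both oil groups. The cause was not tested. Ubb is limited by its few reads and by the unknown handling of reads it shares with Gm1821, and 2 libraries a group limit the other 8 genes.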
